A study of Mus musculus with 7 samples.

Results

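The genes described here are 10 genes by which a muscle cell takes up, stores and oxidises fatty acids: Cd36, Fabp3, Lpl, Cpt1a, Cpt1b, Acadl, Pdk4, Ucp2, Ucp3 and Plin2. They were chosen by name, since many of them are known to rise in muscle cells given fatty acids. Earlier results of these data were known when the choice was made. Every probe on the array that carries 1 of these names was taken whatever its value. That gave 15 of the 39429 probes, of which 14 were bright enough to be tested, among 21589 tested probes in all. The comparison was between cells given exosomes from palmitate-treated donors and cells given exosomes from BSA-treated donors. No probe of the 10 genes had an adjusted p under 0.05 by limma, with adjustment over all tested probes. This does not show that the groups were alike. In a simulation described below, limma called 16 of 100 probes that differed by 1 log2 unit. Before adjustment, 1 probe each for Lpl, Cpt1a and Plin2 passed a p of 0.05, all 3 higher with the exosomes of palmitate-treated donors, where 10.0% of all tested probes did so and 4.85% were higher. The 6 tested probes with a lower mean were those for Cd36, Acadl, Pdk4, Ucp2 and Ucp3 and 1 for Fabp3. None of the 6 had an unadjusted p under 0.05, and only for Acadl did the groups not overlap.

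Fatty acids reach the cytosol of muscle cells through carriers such as CD36, and are burnt in mitochondria after the carnitine palmitoyltransferases have moved them across the mitochondrial membranes. What is not burnt is esterified and kept in lipid droplets. Fatty acids are also ligands of the PPAR nuclear receptors, which bind DNA at a direct repeat of the hexamer AGGTCA and raise many genes of uptake, oxidation and storage. The arrays read RNA and did not measure the fatty acids that reached the recipient cells.

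RNA was taken from C2C12 cells, a mouse muscle line whose myoblasts fuse into myotubes, and measured on 1-colour Agilent arrays. In the EXO-Post Palm group (3 arrays) the cells had received exosomes that donor C2C12 cells released after a treatment with 0.5 mmol/l palmitate, and in the EXO-Post BSA group (4 arrays) exosomes of donors given BSA, the carrier protein of palmitate, instead. Both kinds of exosome were collected 9 h after the treatment had been removed. The recipients were kept with them for 24 h in medium without serum, and 100 ng of RNA was labelled for each array. The labels call the recipient cells myoblasts and the paper calls them myotubes. All 11 myotube markers examined, among them Myog, Myh3 and Acta1, were well above background on all 7 arrays.

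Signal is given as log2 relative to the 75th percentile of the array, so a value of 0 is that percentile and a difference of 1 is a doubling. These values describe 1 probe across arrays and say nothing about how much RNA of 1 gene there was next to another. Differences are always EXO-Post Palm minus EXO-Post BSA. The 75th percentile itself lay between 549.4 and 1621 intensity units, and 48.3 to 70.3% of probes were well above background on an array. Both groups were present together on 2 of the 4 slides, with 2 control arrays (replicates 1 and 2) and EXO-Post Palm replicate 1 on slide 1, and EXO-Post BSA replicate 4 next to EXO-Post Palm replicate 3 on slide 3. A difference is therefore also given within these slides, where each rests on 1 EXO-Post Palm array. The labels call the arrays biological replicates, and the p values measure the spread between these 7 arrays. All 7 were arrays of 1 design, but the file header of EXO-Post BSA replicate 3 gave software version 11.5 and those of the others version 10.7.

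Each probe has 60 bases, and the 3 probes below are shown because they lie in coding sequence and so show what was read from Lpl, Ucp3 and Ucp2. They are placed on mm9 by the annotation of the array, and the capitals mark the stop codon of Ucp2.
Lpl, chr8:71425050-71425109, + strand: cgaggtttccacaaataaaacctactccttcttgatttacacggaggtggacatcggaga
Ucp3, chr7:107630399-107630458, + strand: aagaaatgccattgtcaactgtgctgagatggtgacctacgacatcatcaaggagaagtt
Ucp2, chr7:107647809-107647859, + strand: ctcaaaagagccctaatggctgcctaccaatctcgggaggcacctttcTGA
The Ucp2 probe goes on past the stop codon for the rest of its length, which is not printed.

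Promoters of the 10 genes were read from RefSeq on GRCm38.p6, as 250 bases before and 50 after the start of the gene, because the comparison asks about genes that fatty acids raise through PPAR receptors. An entry was found for 8 genes, all but Lpl and Cpt1b. The hexamer AGGTCA, on either strand, was present in 4 of the 8 and in 16.3% of all 32851 promoters of the table. The direct repeat, in which the hexamer follows itself after 1 base of any kind, contains the hexamer and was also searched on both strands. It was in 0 of the 8 and in 0.0396% of all promoters, 13 of 32851. A repeat as rare as this would hardly be met in 8 promoters. Repeats with other letters or further from the start were not searched, so the 0 does not show that these genes lack PPAR sites. The windows with the hexamer are shown here, with it or its reverse complement in capitals, each written along the strand of its gene.
Plin2, chr4:86670245-86670304, - strand: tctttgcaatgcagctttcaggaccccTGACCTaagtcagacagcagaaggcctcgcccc
Cd36, chr5:17836092-17836146, - strand: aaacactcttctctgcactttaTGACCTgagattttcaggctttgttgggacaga
Ucp3, chr7:100472815-100472874, + strand: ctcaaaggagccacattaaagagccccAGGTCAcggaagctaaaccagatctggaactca
Ucp3, chr7:100472920-100472979, + strand: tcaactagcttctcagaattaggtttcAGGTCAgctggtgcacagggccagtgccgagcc
Cpt1a, chr19:3323180-3323239, + strand: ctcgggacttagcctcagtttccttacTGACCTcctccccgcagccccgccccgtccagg
The match begins 218 bases before the start of the gene for Plin2, 228 for Cd36, 149 and 44 for Ucp3 and 94 for Cpt1a. A match is a run of letters and not a site known to be bound in these cells. Of these 4 genes, Plin2 and Cpt1a had higher means with EXO-Post Palm and Cd36 and Ucp3 lower ones, none past the adjusted threshold.

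Of the 14 tested probes, 0 had an adjusted p under 0.05 (limma with Benjamini-Hochberg adjustment over all tested probes), against 0.533% of all tested probes, 0.463% higher and 0.0695% lower. The 3 probes with an unadjusted p under 0.05 compare with 10.0% of all tested probes, and, since all 3 were higher, with 4.85% of them in that direction and 5.19% in the other. The groups did not overlap for 3 of the 14, 2 higher and 1 lower, against 11.3% of all tested probes, 5.40% higher and 5.87% lower. In all, 8 probes had a higher and 6 a lower mean, with a median difference of 0.17 where the median of all tested probes was -0.02. With 1 tested probe for each gene, that with the highest mean signal, 4 genes were higher and 6 lower, with a median of -0.23. The sign of the median thus depended on how the 4 genes with a second tested probe were counted. The differences ran from -0.57 to 0.77, inside or near the range from -0.79 to 0.69 that holds the middle 90% of all tested probes. For 8 of the 14 the difference between the groups was no larger than the range of the 4 EXO-Post BSA arrays, and for 11 the 95% confidence interval included 0. The median width of that interval was 1.14 on the log2 scale.

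**Figure D1:**
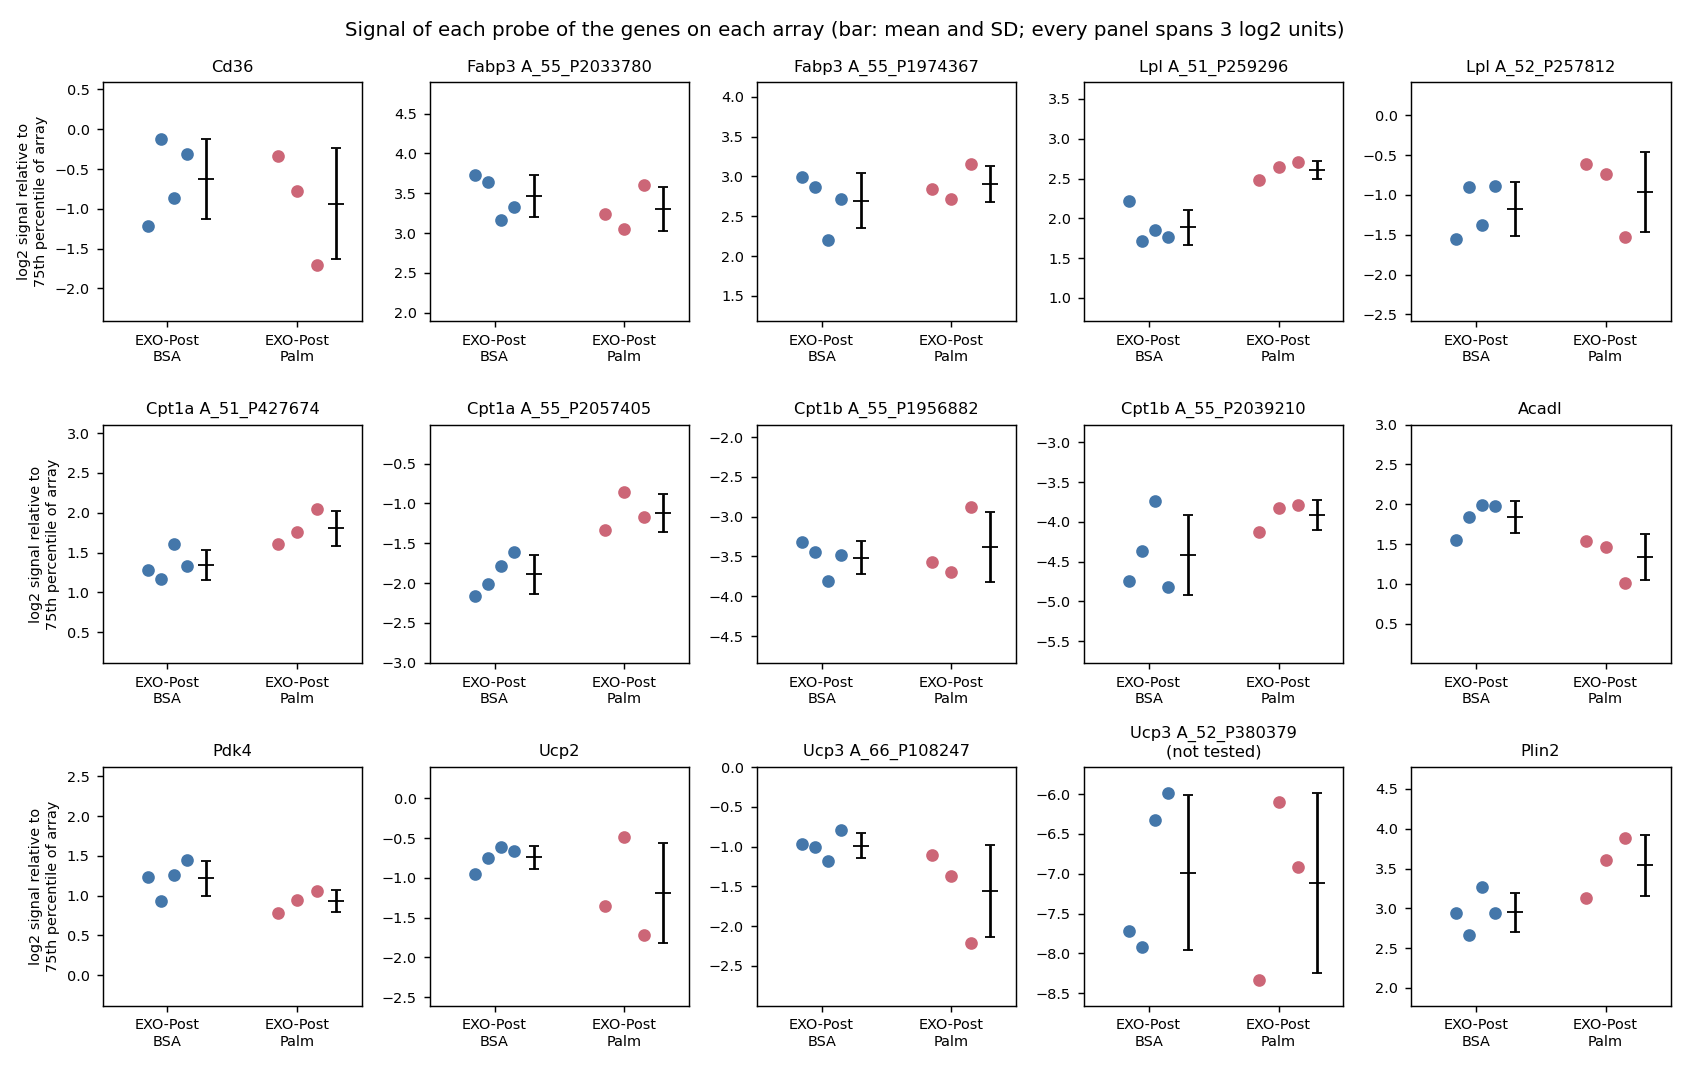
Log2 signal relative to the 75th percentile of the array (y axis, every panel spanning 3 log2 units) for the 15 probes of the 10 genes. Each point is 1 array, with 4 EXO-Post BSA arrays in blue and 3 EXO-Post Palm arrays in red, and the bars give the mean and SD of each group. The groups are apart for Lpl A_51_P259296, Cpt1a A_55_P2057405 and Acadl and overlap for the other 11 tested probes, and Ucp3 A_52_P380379 was well above background on none of the arrays.

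Of the uptake genes, Lpl codes for lipoprotein lipase, which frees fatty acids from circulating triacylglycerol at the cell surface. Its probe A_51_P259296 (chr8:71430267-71430326) gave 2.21, 1.71, 1.85 and 1.77 in the EXO-Post BSA group, here and below in the order of replicates 1 to 4, and 2.48, 2.64 and 2.70 in the EXO-Post Palm group, in the order of replicates 1 to 3. All 3 EXO-Post Palm arrays were above all 4 EXO-Post BSA arrays. The difference was 0.72 on the log2 scale (SE 0.21, 95% confidence interval 0.25 to 1.19), a ratio of 1.65. It had a limma p of 0.00715, which became 0.258 after adjustment, and an exact 2-sided permutation p of 0.0571, where the smallest possible is 0.0286. Within slide 1 the difference was 0.52 and within slide 3 it was 0.93. The other Lpl probe, A_52_P257812, whose coding sequence is printed above, lies 2144 bases upstream in the transcript. It read -1.56, -0.90, -1.38 and -0.88 with EXO-Post BSA and -0.61, -0.74 and -1.53 with EXO-Post Palm. Here the groups overlapped, with EXO-Post Palm replicate 3 near the bottom of the range, and the difference of 0.22 (SE 0.30, 95% confidence interval -0.46 to 0.89, adjusted p 0.841 by limma) was 0.61 within slide 1 and -0.65 within slide 3. The differences of the 2 Lpl probes were themselves 0.51 apart (exact permutation p 0.257, adjusted over 4 such pairs 0.343).

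Cd36 codes for the fatty acid translocase of the plasma membrane. Its probe (A_51_P375146, chr5:17288600-17288659) read -1.21, -0.12, -0.87 and -0.31 on the EXO-Post BSA arrays and -0.34, -0.77 and -1.70 on the EXO-Post Palm arrays. The arrays of either group were spread over more than 1 log2 unit and overlapped widely. The fitted difference of -0.31 (SE 0.38) had the broadest interval of the 14 probes, -1.18 to 0.56, with an adjusted p of 0.826 by limma. Its sign differed between slides, 0.33 on slide 1 and -1.39 on slide 3, and without EXO-Post Palm replicate 3 the fitted difference was 0.07.

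Fabp3 is the fatty acid binding protein of heart and muscle, which carries fatty acids through the cytosol. Its 2 probes overlap by 51 of 60 bases, A_55_P2033780 at chr4:129992652-129992711 and A_55_P1974367 at chr4:129992643-129992702. They are therefore not independent measurements. A_55_P2033780 read 3.73, 3.64, 3.17 and 3.33 with EXO-Post BSA and 3.24, 3.06 and 3.60 with EXO-Post Palm. A_55_P1974367 read 2.99, 2.87, 2.21 and 2.72 with EXO-Post BSA and 2.85, 2.71 and 3.16 with EXO-Post Palm. For both, 2 of the 3 EXO-Post Palm arrays lay within the range of the controls. The fitted differences had opposite signs, -0.17 (SE 0.23, adjusted p 0.844 by limma) and 0.21 (SE 0.25, adjusted p 0.818). The first minus the second, -0.38, had the smallest exact permutation p that the 7 arrays allow, 0.0286, which became 0.114 when adjusted over the 4 pairs of probes. With another background correction and normalisation, the first of these probes also gave a positive difference, 0.22.

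The carnitine shuttle begins with CPT1, which couples long-chain fatty acids to carnitine at the outer mitochondrial membrane and is the main point of control of their oxidation. Cpt1a, the form found in liver and in most tissues, was read by 2 probes 1314 bases apart in the last part of the transcript. Probe A_55_P2057405 (chr19:3384060-3384119) gave -2.17, -2.01, -1.79 and -1.61 with EXO-Post BSA and -1.33, -0.85 and -1.18 with EXO-Post Palm. The groups did not overlap. The difference of 0.77 (SE 0.23, 95% confidence interval 0.26 to 1.29) was the largest of the 14 probes in size in this fit, a ratio of 1.71, with a limma p of 0.00806 and an adjusted p of 0.272. Its exact permutation p was 0.0286, the smallest that the design allows. Probe A_51_P427674 (chr19:3385374-3385433), which is printed on 10 spots of each array and was averaged over them, gave 1.27, 1.17, 1.60 and 1.33 with EXO-Post BSA and 1.60, 1.76 and 2.04 with EXO-Post Palm. Only EXO-Post Palm replicate 1 and EXO-Post BSA replicate 3 met, at 1.60. The difference was 0.46 (SE 0.21, 95% confidence interval -0.02 to 0.94), with a limma p of 0.0591 and an adjusted p of 0.517. Both probes were higher with EXO-Post Palm within both slides, by 0.76 and 0.43 for the first probe and by 0.38 and 0.71 for the second. With another background correction and normalisation, the first probe gave 0.45 (limma p 0.115) and the second 0.52 (limma p 0.0291). In the authors' values they gave 0.51 (limma p 0.118) and 0.54 (limma p 0.0420).

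Cpt1b is the form of the enzyme that predominates in adult skeletal and heart muscle. Its probes, 270 bases apart on the minus strand of chromosome 15, were dim. A_55_P1956882 (chr15:89246836-89246895) read -3.32, -3.45, -3.81 and -3.48 with EXO-Post BSA and -3.57, -3.69 and -2.88 with EXO-Post Palm, a difference of 0.13 (SE 0.26, adjusted p 0.895 by limma). A_55_P2039210 (chr15:89247106-89247165), which cleared background on all but 1 of the EXO-Post BSA arrays, read -4.74, -4.37, -3.73 and -4.82 with EXO-Post BSA and -4.13, -3.82 and -3.79 with EXO-Post Palm, a difference of 0.50 (SE 0.29, adjusted p 0.612). The groups overlapped for both. The first of the 2 turned negative with another background correction and normalisation, at -0.11, so no direction is given for Cpt1b.

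Acadl, the long-chain acyl-CoA dehydrogenase that takes the first step of beta-oxidation in mitochondria, went the other way. Its probe (A_51_P149455, chr1:66877673-66877732) read 1.55, 1.84, 1.99 and 1.97 on the EXO-Post BSA arrays and 1.54, 1.47 and 1.01 on the EXO-Post Palm arrays. All 3 EXO-Post Palm arrays were below all 4 controls, although EXO-Post Palm replicate 1, at 1.54, was almost level with EXO-Post BSA replicate 1. The difference was -0.50 (SE 0.22, 95% confidence interval -1.01 to 0.01), a ratio of 0.708, with a limma p of 0.0551, an adjusted p of 0.511 and an exact permutation p of 0.0571. It was -0.15 on slide 1 and -0.96 on slide 3.

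Pdk4 codes for the kinase that switches off pyruvate dehydrogenase and so spares glucose when fat is burnt. It is among the genes that fatty acids raise most readily in muscle. Its probe (A_51_P350453, chr6:5433441-5433500) read 1.23, 0.93, 1.26 and 1.45 with EXO-Post BSA and 0.78, 0.95 and 1.06 with EXO-Post Palm. Replicate 2 of the controls fell among the EXO-Post Palm arrays, and the other 3 controls were above them. The difference was -0.29 (SE 0.21, limma p 0.204, adjusted p 0.687), and -0.30 and -0.39 within slides 1 and 3. The 95% confidence interval of the ratio was 0.591 to 1.14. The difference was -0.04 after normexp, a background correction by a fitted model, and quantile normalisation, and -0.02 in the authors' values.

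The uncoupling proteins Ucp2 and Ucp3 sit in the inner mitochondrial membrane, and their RNA is known to rise with fatty acid supply. The Ucp2 probe printed above gave -0.95, -0.75, -0.61 and -0.66 with EXO-Post BSA and -1.35, -0.49 and -1.72 with EXO-Post Palm. Of the EXO-Post Palm arrays, 2 lay below all controls and 1 above them all. The difference was -0.44 (SE 0.30, 95% confidence interval -1.12 to 0.23, adjusted p 0.661 by limma). A fit with slide as a block gave no weight to EXO-Post BSA replicate 3 and EXO-Post Palm replicate 2, each alone on its slide. Its difference was -0.74, at an adjusted p of 0.448 by limma, against -0.21 after normexp and quantile normalisation. With 1 array left out the Ucp2 difference ran from -0.79, without EXO-Post Palm replicate 2, to -0.18, without replicate 3. For Ucp3, the form typical of skeletal muscle, the coding probe A_66_P108247 gave -0.97, -1.01, -1.19 and -0.79 with EXO-Post BSA and -1.11, -1.37 and -2.21 with EXO-Post Palm. The lowest value was that of EXO-Post Palm replicate 3, and replicate 1 was within the range of the controls. The difference of -0.57 (SE 0.28, 95% confidence interval -1.22 to 0.07) was the lowest of the 14 probes in this fit, with a limma p of 0.0760, an adjusted p of 0.554 and an exact permutation p of 0.0571. It was -0.12 on slide 1 and -1.41 on slide 3. The difference was -0.17 after normexp and quantile normalisation and -0.26 in the authors' values, where Acadl at -0.46 and -0.49 lay below it. With 1 array left out it ran from -0.80, without EXO-Post Palm replicate 1, to -0.25, without replicate 3. The other Ucp3 probe, A_52_P380379 (chr7:107634291-107634350), 1052 bases further on in the transcript, was well above background on 0 of the 7 arrays and was not tested.

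Plin2 coats lipid droplets, and its RNA and protein follow the fat that a cell stores. The probe (A_55_P1999648, chr4:86302847-86302906) read 2.94, 2.66, 3.26 and 2.94 with EXO-Post BSA and 3.13, 3.61 and 3.89 with EXO-Post Palm. EXO-Post Palm replicates 2 and 3 were above all controls, and replicate 1 was below EXO-Post BSA replicate 3. The difference was 0.59 (SE 0.25, 95% confidence interval 0.02 to 1.16), a ratio of 1.51, with a limma p of 0.0431, an adjusted p of 0.482 and an exact permutation p of 0.0857. It was 0.33 on slide 1 and 0.95 on slide 3.

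**Figure D2:**
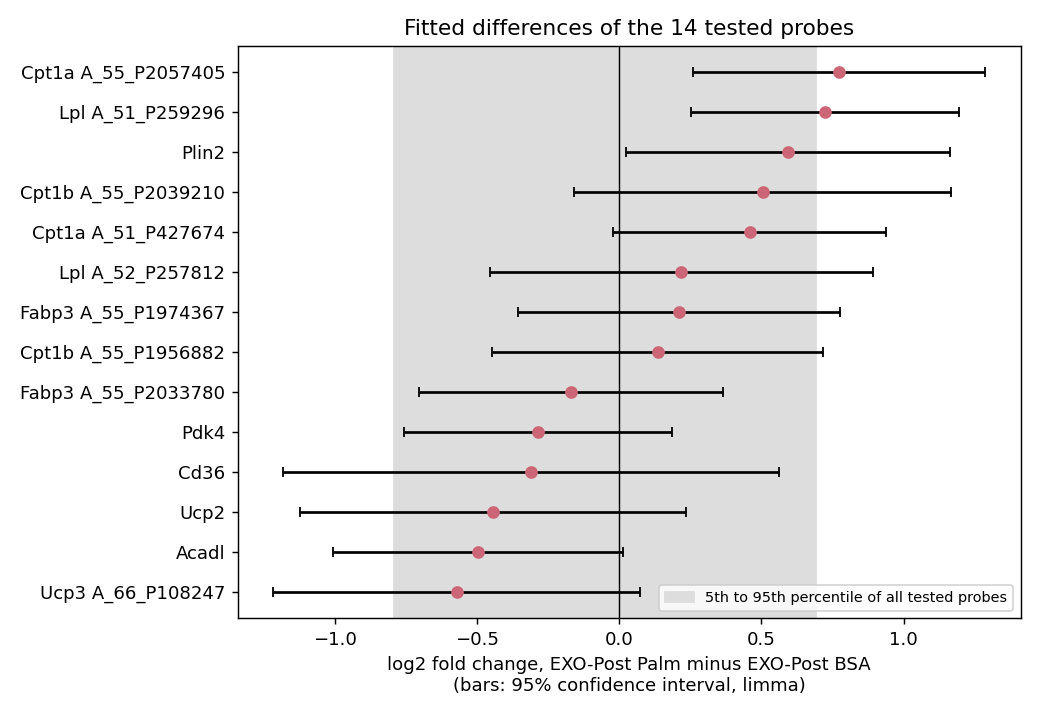
Fitted difference in log2 signal, EXO-Post Palm minus EXO-Post BSA (x axis), of the 14 tested probes, with 95% confidence intervals from limma as bars and the 5th to 95th percentile of all 21589 tested probes shaded in grey. The intervals of Cpt1a A_55_P2057405, Lpl A_51_P259296 and Plin2 leave out 0, and those of the other 11 probes include it.

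Among the EXO-Post Palm arrays, replicate 3 was often at an end of the range. It was the highest of the 3 for 8 of the 14 probes and the lowest for 5, whereas replicate 1 was the highest for 4 and the lowest for 6, and replicate 2 the highest for 2 and the lowest for 3. Within slides 1 and 3, 5 probes were higher with EXO-Post Palm on both slides, 4 were lower on both and 5 had opposite signs. The probes higher on both were both Cpt1a probes, Lpl A_51_P259296, Cpt1b A_55_P2039210 and Plin2. Those lower on both were Acadl, Pdk4, Ucp2 and Ucp3.

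Under 16 alternatives, which are 9 other ways of processing or testing and 7 in which 1 array was left out, Lpl A_51_P259296 had an unadjusted p under 0.05 in all 16, Cpt1a A_55_P2057405 in 14 and Plin2 in 7. No probe of the 10 genes had an adjusted p under 0.05 in any of them. The Lpl difference stayed between 0.67 and 0.83, that of Cpt1a A_55_P2057405 between 0.45 and 0.88 and that of Plin2 between 0.42 and 0.89. Pdk4 stayed below 0 throughout, from -0.38 to -0.02.

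**Figure D3:**
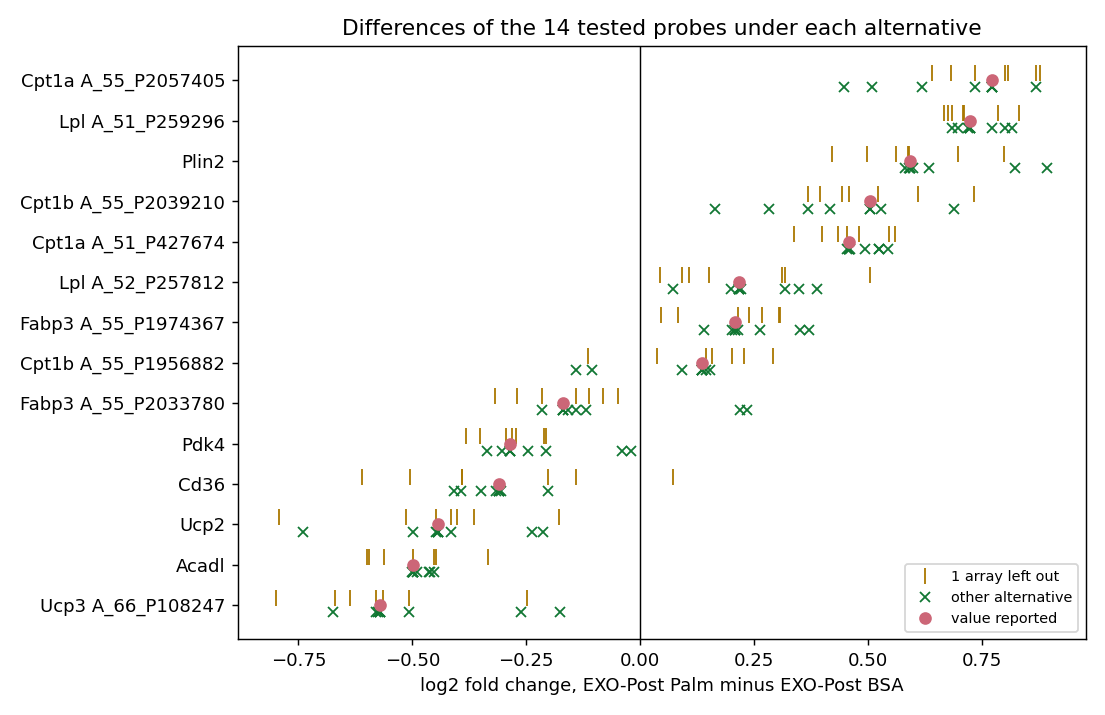
Fitted difference in log2 signal, EXO-Post Palm minus EXO-Post BSA (x axis), of the 14 tested probes as reported (red points), with 1 of the 7 arrays left out (brown bars) and under the other alternatives (green crosses). Values of Cd36, Fabp3 A_55_P2033780 and Cpt1b A_55_P1956882 lie on both sides of 0, and those of the other 11 probes stay on 1 side.

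The 10 genes were set beside a wider list of 78 other genes of fatty acid handling, 69 of which had a tested probe. This list too was drawn up with earlier results of these data known. Of the 69, 34 were higher and 35 lower with a median of -0.01, and 1 had an adjusted p under 0.05 (0.533% of all tested probes). That gene was Angptl4, which codes for a secreted inhibitor of lipoprotein lipase and is a strong target of PPAR receptors. It read 2.25, 2.10, 2.11 and 2.08 with EXO-Post BSA and 3.86, 3.25 and 4.40 with EXO-Post Palm. The groups were more than 1 log2 unit apart. Angptl4 rose by 1.70 (SE 0.28, 95% confidence interval 1.08 to 2.33, adjusted p 0.0436 by limma), a ratio of 3.25, with differences of 1.69 and 2.31 within slides 1 and 3. Its call was lost when any 1 of the 4 EXO-Post BSA arrays, EXO-Post Palm replicate 1 or EXO-Post Palm replicate 3 was left out, with differences of 1.42 to 1.74, and was kept without EXO-Post Palm replicate 2. Over all alternatives its adjusted p ran from 0.0128 to 0.237.

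By role, of 13 tested genes of uptake and activation 4 were higher and 9 lower, of 6 genes of the carnitine shuttle 4 and 2, and of 15 genes of mitochondrial beta-oxidation 9 and 6. Of 7 genes of peroxisomal oxidation 4 were higher and 3 lower, of 9 genes of lipid droplets and lipolysis 4 and 5, of 9 genes of fuel choice and acyl-CoA handling 4 and 5, and of 10 regulators and secreted targets 5 and 5. Besides Angptl4, 6 genes had an unadjusted p under 0.05 (7 of 69 with Angptl4, against 10.0% of all tested probes), and none of the 6 passed the adjusted threshold.

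Higher among these 6 were 2 enzymes of beta-oxidation. They were Acads, the short-chain acyl-CoA dehydrogenase, with a difference of 0.73 (adjusted p 0.270 by limma), and Ech1, a dienoyl-CoA isomerase, with 0.57 (adjusted p 0.424), which was chosen after its values had been seen. Acads read -0.66, -0.66, -0.65 and -0.16 with EXO-Post BSA and 0.29, 0.09 and 0.20 with EXO-Post Palm, with no overlap. Lower were 4 genes. Mgll, the lipase that splits monoacylglycerol, differed by -1.14 (adjusted p 0.220), and its other 2 tested probes by -0.74 and -0.84. Lpin1, a phosphatidate phosphatase that is also a coactivator of PPAR-alpha, differed by -0.76 (adjusted p 0.249). Ppargc1a, the coactivator PGC-1alpha that drives mitochondrial biogenesis, differed by -0.66 (adjusted p 0.278) and cleared background on 2 of the 3 EXO-Post Palm arrays. The Ppargc1a difference was -0.30 after normexp and quantile normalisation (limma p 0.152) and -0.52 in the authors' values (limma p 0.0572). Acsl6, an acyl-CoA synthetase, differed by -0.82 (adjusted p 0.441), in a fit without EXO-Post Palm replicate 1, whose spot was marked as uneven or outlying. That difference was -0.43 after normexp and quantile normalisation, -1.27 without EXO-Post Palm replicate 2 and -0.36 without replicate 3. The other Acsl6 probe, A_52_P352187, cleared background on none of the 4 control arrays and on 2 of the 3 EXO-Post Palm arrays, and was not tested. Its means, -6.28 in the controls and -4.69 with EXO-Post Palm, differed in the opposite direction, with no overlap.

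The genes next to the 10 in their pathway gave differences that did not pass the test. Cpt2, the second carnitine palmitoyltransferase, differed by 0.18, Slc25a20, the carnitine carrier between the 2 transferases, by 0.00, and Mlycd, which removes the malonyl-CoA that inhibits CPT1, by 0.70 (adjusted p 0.699), or by 0.15 without EXO-Post BSA replicate 4. Acadvl and Acadm, the very long-chain and medium-chain counterparts of Acadl, differed by -0.08 and 0.27, and Hadha and Hadhb, which form the trifunctional protein, by 0.05 and -0.36. None of these passed a p of 0.05 in this fit. The Hadhb difference was -0.68 without EXO-Post BSA replicate 2, and its unadjusted p was under 0.05 in 1 of the 16 alternatives. Acadm differed by 0.62 after normexp and quantile normalisation (limma p 0.0150, adjusted p 0.291) and by 0.65 in the authors' values (limma p 0.0217, adjusted p 0.342). Of the uptake genes, Slc27a1 differed by -0.01, Acsl1 by -0.11 and Gpihbp1, which anchors lipoprotein lipase, by 0.41. Among the receptors themselves, Ppara differed by 0.20, Ppard by 0.13 and Pparg by -0.09. For the other genes named by the rule the 95% confidence interval also included 0, with differences of 0.43 for the droplet coat gene Plin4, -0.54 for the triacylglycerol lipase gene Pnpla2, -0.68 for Pdk1, 0.33 for the thioesterase gene Acot1, -0.41 for Hsd17b4, 0.14 for Pex11a and -0.25 for the carnitine transporter gene Slc22a5. The direction of Slc27a1, Slc25a20, Hadha, Ppara and Cpt2 turned under at least 1 other normalisation.

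**Figure D4:**
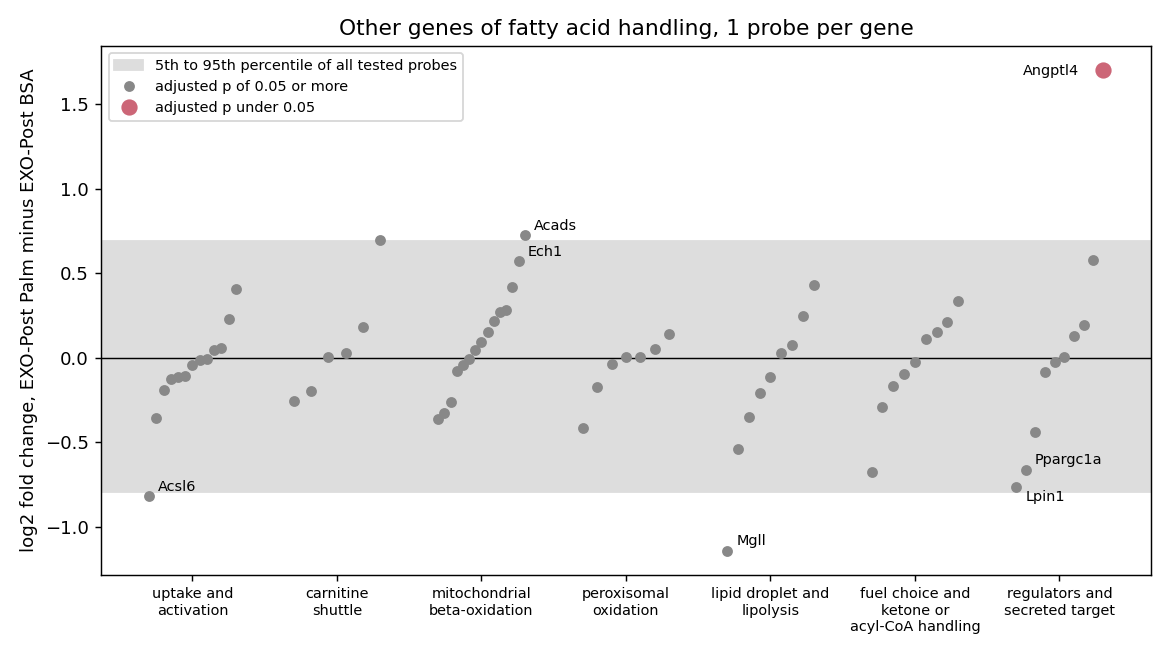
Fitted difference in log2 signal, EXO-Post Palm minus EXO-Post BSA (y axis), of the 69 tested genes of the wider list, 1 probe per gene, by role (x axis). The shaded band is the 5th to 95th percentile of all tested probes. Angptl4, in red, is the gene with an adjusted p under 0.05, and the labelled grey points are the 6 genes with an unadjusted p under 0.05.

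Over the whole array, 115 of the 21589 tested probes passed the adjusted threshold, 100 higher and 15 lower, and without single arrays that count ran from 0 to 202. Markers of dividing cells moved with the groups. Of 10 proliferation markers 9 were tested, all 9 were higher with EXO-Post Palm and 5 passed the adjusted threshold, with a median difference of 2.19. Their summed signal was 2.39 to 2.69 with EXO-Post BSA and 4.07 to 5.49 with EXO-Post Palm, and 1 of the 10, Aurkb, was well above background on no array. Of 11 myotube markers 2 were higher and 9 lower, with a median of -0.21, no call and summed signals of 9.61 to 9.88 and 9.31 to 9.62. A change in the share of dividing or fused cells and a change of RNA per cell cannot be told apart in such samples, and the part of either in the values of the 10 genes was not tested. Markers of cells that a C2C12 culture should lack were examined too, and their part in the values of the 10 genes was not tested either. Of 8 adipocyte markers 2 were tested, with summed signals of -0.42 to -0.23 and -0.71 to -0.13, and Cfd was well above background on no array. The 2 tested were Pparg, well above background on every array, and Cidec, both also genes of the wider list. Of 8 endothelial markers 4 were tested, with summed signals of 2.14 to 2.51 and 1.73 to 2.78, and Cdh5, Tek, Esam and Emcn were well above background on no array. Of 8 macrophage markers 5 were tested, and Lyz2 was well above background on no array. Their summed signal, 2.99 to 4.18 with EXO-Post BSA and 2.61 to 2.95 with EXO-Post Palm, did not overlap between the groups. Itgam had the highest mean of the 8 in both groups, 3.32 and 1.70, and so made the largest part of that sum. It differed by -1.63 (adjusted p 0.111 by limma) and Marco by -0.20. The other 3 were higher with EXO-Post Palm, Cd14 by 1.05 (adjusted p 0.219), Emr1 by 0.58 and Csf1r by 0.45, so that the median of the 5 was 0.45 and none passed the adjusted threshold.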

How the data were processed

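For each array the authors deposited scanner output, in which the processed signal is a background-subtracted intensity that has not been normalised across arrays. They also deposited a table of log2 values with nearly the same distribution on every array. Agilent Feature Extraction 9.1 and limma are named in the submitters' processing notes, while the file headers give versions 10.7 and 11.5. The scale and normalisation of the deposited log2 values were read from the values themselves, and the background settings are not given in the sources used here. Its rows were joined to spots by order (rank correlation with the median signal of at least 0.994, column medians of 6.65).

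The processed signal was taken to log2, and the 75th percentile over 43020 non-control spots was subtracted array by array. Control spots were dropped, as were those flagged uneven or outlying. No spot was saturated, and the 399 probes printed more than once were averaged. The filter kept probes well above background in at least 75% of either group's arrays. The test was limma 3.58.1 (R 4.3.3, with the packages jsonlite 2.0.0 and data.table, version 1.17.8) on all 7 arrays with no covariates (prior degrees of freedom 3.67), 2-sided, with Benjamini-Hochberg adjustment over all tested probes and a threshold of 0.05. Single probes also had an exact permutation test over all 35 partitions of the arrays. In a simulation with 21137 probes, limma called 16 of the 100 that differed by 1 log2 unit and 68 of the 100 that differed by 2, and 6 of its calls were false. The simulated noise was normal and independent, with the SDs shuffled among the probes and no slide effect. These counts may therefore differ from those that limma would reach on the real arrays. The number of arrays limits the precision.

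Named genes are the 10 genes with every probe, 13 genes of the wider list fixed by name (others that the rule names are not reported here), every gene of that list past the threshold, and in each role the largest rise and fall. A gene is given by its tested probe with the highest mean. Ech1 and the markers named lie outside that rule. The genes, lists and tests were chosen with earlier results of these data known. The 9 alternatives besides leaving out arrays are named in the closing section. The normexp alternative used the median signal with an offset of 50, since the mean signal was not in the output of EXO-Post BSA replicate 3.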

Additional observations from a re-analysis of the deposited data

Results flagged for a closer look

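In 6 of the 40 probes examined, 1 of the 4 EXO-Post BSA arrays stood apart from the other 3 by Dixon's criterion, which chance meets in about 5% of groups. None of the 6 was a probe of the 10 genes. EXO-Post BSA replicate 2 read -2.37 for Slc22a5 where the others lay between -1.63 and -1.50, 2.50 for Hadhb where they lay between 3.68 and 3.88, and -1.01 for Lpin1 where they lay between -1.33 and -1.29. EXO-Post BSA replicate 4 read -0.66 for Mlycd, below the others at 1.30 to 1.67, and -0.16 for Acads, above the others at -0.66 to -0.65. EXO-Post BSA replicate 1 read 2.25 for Angptl4, above the others at 2.08 to 2.11, and all 3 EXO-Post Palm arrays were higher still. The difference of 0.70 given for Mlycd was 0.15 without EXO-Post BSA replicate 4, and that of 0.73 for Acads was then 0.85. Without EXO-Post BSA replicate 2 the difference of -0.36 for Hadhb was -0.68, and that of -0.25 for Slc22a5 was -0.46.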

How the results depend on the processing

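No probe of the 10 genes passed the adjusted threshold under any of the 16 alternatives. Over all probes the count of 115 was 125 after normexp and quantile normalisation, 106 after quantile normalisation alone, 124 in the authors' values, 154 with only probes well above background on every array and 115 with slide as a block. It was 181 with slide as a random block, and 0 without a probe filter (1900 at an unadjusted p under 0.05), 0 under the methods' t-test after Benjamini-Hochberg adjustment (2107 unadjusted) and 0 with the replicate block (1933 unadjusted). The fit with slide as a block gave no weight to the arrays that were alone on a slide. Leaving out 1 array gave a count of 0 to 202. Without EXO-Post BSA replicates 1, 2, 3 and 4 in turn the count was 0, 44, 21 and 68, and without replicates 1, 2 and 3 of EXO-Post Palm it was 7, 202 and 27. In the wider list the count of 1, Angptl4, became 0 without a probe filter, under the t-test and with the replicate block (differences of 1.70, 1.70 and 1.69), and 0 to 1 with 1 array left out. The deviations of same-numbered arrays from their group means correlated at 0.12, -0.15 and -0.15. These values gave no sign of a pairing by number but cannot exclude one. EXO-Post Palm replicates 1, 2 and 3 correlated most with EXO-Post BSA replicates 2, 3 and 4 in turn, and the first and last of these pairs shared a slide. The 10 genes had no call before the replicate block, which left 0 over all probes, so their unchanged count says nothing about pairing. The causes were not tested.

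Directions turned for 2 probes of the 10 genes when the processing changed. Fabp3 A_55_P2033780 gave 0.22 after normexp and 0.23 in the authors' values, and Cpt1b A_55_P1956882 gave -0.11 and -0.14. With 1 array left out, Cd36 ran from -0.61 to 0.072 and that Cpt1b probe from -0.12 to 0.29. In the wider list, values after normexp were 0.15 for Slc27a1, -0.13 for Slc25a20, -0.10 for Hadha and -0.061 for Ppara. In the authors' values they were 0.20 for Slc27a1, -0.13 for Slc25a20, -0.086 for Hadha, -0.067 for Ppara and -0.016 for Cpt2. Quantile normalisation alone gave 0.012 for Slc27a1 and -0.0012 for Slc25a20. Slide as a block gave -0.13 for Slc25a20, -0.050 for Hadha, 0.24 for Hsd17b4 and -0.018 for Ppara, and slide as a random block gave -0.016 for Slc25a20. The replicate block gave 0.12 for Slc27a1 and -0.014 for Ppara. With 1 array left out the ranges were -0.20 to 0.13 for Slc27a1, -0.086 to 0.37 for Cpt2, -0.14 to 0.27 for Slc25a20, -0.13 to 0.015 for Acadvl, -0.12 to 0.18 for Hadha, -0.65 to 0.064 for Hsd17b4, -0.18 to 0.43 for Ppara, -0.013 to 0.34 for Ppard and -0.26 to 0.091 for Pparg.

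Signal over background limited Cpt1b, Ppargc1a and 1 of the Ucp3 probes.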
